A study of Mus musculus with 4 samples.

Results

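The probes described here are those at which mouse embryonic stem cells gave the highest signal over a reference pool of RNA from 11 cultured cell lines. They are 200 of the 42006 probes of a mouse microarray with probes of 60 bases. Probes with a saturated spot on any array (265) were left out first. Probes at least 2-fold higher in reporter-positive than in reporter-negative cells in both replicates (255, of which 3 were also saturated) were left out as well. Of the 41489 probes that remained, the 200 with the highest mean log2 ratio of sample over pool on the 4 arrays were kept, which is 0.482% of them. The probes were thus chosen by their measured level over the pool and by an upper limit on the difference between the cells, and both are given as a description.

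The cells were a male 129/Sv embryonic stem cell clone, ES[129.3:Zscan4cEmgfp(7)], carrying the green fluorescent protein Emerald under the Zscan4c promoter. The culture was dispersed with trypsin and sorted by fluorescence into Emerald+ and Emerald- cells, called positive and negative cells below, with 2 samples of each. Replicates 1 and 2 carry the dates of 2 different days in the labels, and each day gave 1 sample of each kind. Sample RNA was labelled with Cy3 and the Universal Mouse Reference with Cy5 on every array. The pool was made from lines of embryo, fibroblast, kidney, liver, macrophage, B- and T-lymphocyte, mammary gland, myoblast, skin and testis origin. All samples come from 1 clone and both groups carry the transgene. No source says that the 2 samples of a group were separate cultures, so p-values measure only the spread between these samples. Sample and pool also differed in dye and, per the labels, in amplification kit on all 4 arrays, so a level above the pool cannot be told apart from an effect of dye or kit.

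Embryonic stem cells are derived from the inner cell mass of the blastocyst, renew themselves in culture and can form all tissues of the embryo. A network of transcription factors keeps them in this pluripotent state, and some of its genes are silent in most differentiated lines. Zscan4 is a family of genes of the early cleavage-stage embryo, encoding proteins with a SCAN domain and zinc fingers. In a culture of embryonic stem cells its genes are active in only a minority of the cells at a time, and this passing state is known for telomere elongation. The comparison here is whether the signal that sets embryonic stem cells apart from the pool is kept in the cells sorted as positive.

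The scanner tables give every probe an identifier and its sequence but no gene, and none was assigned here. Markers of embryonic stem cells and of other cell types, and the planned gene lists, were therefore not analysed here, and the name stem-cell-enriched rests on the ratio to the pool. The probes are described by identifier, sequence and value. Sequences are printed 5′ to 3′ as the scanner tables give them. Stretches of 30 bases are bases 31 to 60 of the probe, and the others are whole probes.

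The sequences of the probes with the highest ranks are shown first, because they carry the strongest signal of the set. The third and the fifth probe by rank are a near-identical pair, and the capitals mark the 5 of 60 bases at which they differ.
Z00063643-1: gagagatattaaaatgacaaacgtgtctgc
Z00005214-1: aggaaggagtttattcggatttgaacattt
Z00072411-1: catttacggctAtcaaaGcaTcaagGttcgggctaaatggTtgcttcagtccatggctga
Z00060226-1: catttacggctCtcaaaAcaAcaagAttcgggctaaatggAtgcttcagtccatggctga
Z00034687-1: attgttcatgaatatgcacagtaaaaatgg
From Z00072411-1 to Z00060226-1 the substitutions, with positions counted from 1 at the 5′ end, are A12C, G18A, T21A, G26A and T41A. The pair shares 55 bases, so the same RNA could bind to both probes, which was not tested. They are therefore not counted as independent measurements.

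The next probes are the 3 members with the highest difference between positive and negative cells, with probes aligned to them and a pair of overlapping members that was called higher in 1 of the fits below. In 3 of them the capitals mark an 11-base run, CATACTGGAGA, of the kind found in the linker between neighbouring zinc fingers of the Krüppel type. The last of these, Z00060976-1, is not one of the 200, because the limit on the difference removed it. In the last pair the capitals mark AATAAA. These letters form the signal for cleavage and polyadenylation near the end of many messenger RNAs, but they also occur elsewhere. Whether they act as that signal in any probe here was not tested.
Z00055646-1: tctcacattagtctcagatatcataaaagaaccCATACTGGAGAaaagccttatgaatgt
Z00060956-1: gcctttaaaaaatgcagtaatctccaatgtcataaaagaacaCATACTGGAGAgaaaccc
Z00060976-1: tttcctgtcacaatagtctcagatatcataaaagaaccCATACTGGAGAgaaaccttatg
Z00009042-1: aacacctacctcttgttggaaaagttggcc
Z00060983-1: ctgagagttcatcatagaattcatgcagga
Z00061014-1: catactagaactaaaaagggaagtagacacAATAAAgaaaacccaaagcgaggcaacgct
Z00060386-1: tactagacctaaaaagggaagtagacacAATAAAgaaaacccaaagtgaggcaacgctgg
Z00055646-1 and Z00060976-1 aligned over 55 bases, of which 51 were identical. The last pair aligned over 58 bases, of which 56 were identical.

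The probes with the lowest differences follow, with a further pair of lower value in positive cells. The capitals again mark AATAAA.
Z00000953-1: catcatgagacaaactgaagtaacttaggc
Z00035601-1: atttctAATAAAtgtgtattttatcagaaa
Z00021599-1: gactgaattagaaatggaaatggctagagc
Z00034455-1: ctcttgttaatctcaatgacAATAAAatat
Z00004931-1: cttgttaatctcaatgacAATAAAatatat
The last pair aligned over 58 bases with 50 identical.

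The arrays were of uneven brightness. Median net Cy3 signal was 241 and 122 on the positive arrays of replicates 1 and 2, and 217 and 136 on the negative arrays. In Cy3, between 79.3% and 93.6% of all probes lay above the negative-control spots, while all 200 members did so on all 4 arrays. Cy5 was not compared with these spots. The number of arrays, 2 in each group, limits the precision. In sorted bulk samples, fewer cells of a type and less RNA per cell cannot be told apart.

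A pair of ratios is used below. The ratio of processed signals, as the scanner software wrote them, is the one that chose the probes. The ratio after background correction and loess, a smoothing that removes the dependence on intensity, is used for levels and tests unless stated. On the processed scale the lowest member was 4.76-fold and 5.18-fold over the pool on the positive arrays, and 3.95-fold and 4.34-fold on the negative arrays. The values at the limit of the set were close together. Ranks 198 to 200 (Z00028408-1, Z00060927-1 and Z00060882-1) had mean log2 ratios of 3.03, 3.02 and 3.01. The next 3 probes, Z00051074-1, Z00026161-1 and Z00058818-1, which were not kept, had 3.01, 3.01 and 3.00.

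After loess, the members' log2 ratio had a lowest, median and highest value of 1.65, 3.31 and 6.54 on the positive array of replicate 1. On that of replicate 2 these were 1.29, 3.39 and 6.94. The negative arrays gave 1.80, 3.24 and 6.26 in replicate 1, and 1.44, 3.26 and 6.47 in replicate 2. The medians of the 4 arrays thus lay close together, and every member with a value was at least 2-fold over the pool on every array. Z00031032-1 and Z00070459-1 have no value on the positive array of replicate 2, where the scanner software marked their spots as outliers, so counts over both days use 198 members. The median of all probes was -0.01 on each array.

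The signals of both channels, whose ratio chose the probes, are given as a description. The members' median processed Cy3 signal was 8956 and 10594 on the positive arrays and 8228 and 9108 on the negative arrays, against 841 to 967 for all probes. Their median Cy5 signal, which is the pool, was 658 and 631 on the positive arrays and 672 and 618 on the negative arrays, against 818 to 927 for all probes. Relative to the median of its array, the median member was 3.12 to 3.66 higher in Cy3 and 0.37 to 0.50 lower in Cy5, on the log2 scale.

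The highest probe by rank, Z00063643-1, had log2 ratios of 6.54 and 6.94 in positive against 6.26 and 6.47 in negative cells. It averaged 93.9-fold over the pool. Both positive values lay above both negative values, by a small margin, and the difference of 0.37 (SE 0.17) did not pass the test described below. Z00005214-1 had 6.14 and 6.31 in positive against 6.05 and 6.21 in negative cells, so its groups overlapped. The near-identical pair also had groups that overlapped. Z00072411-1 had 6.16 and 6.42 in positive against 6.11 and 6.25 in negative cells. Z00060226-1 had 5.98 and 6.12 against 5.99 and 5.93. Both probes of the pair differed by about their standard error between the cells, 0.11 (SE 0.12) and 0.09 (SE 0.09). Z00034687-1 had 5.75 and 6.48 in positive against 5.71 and 6.24 in negative cells, so the days lay further apart than the groups.

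Probes that were high in negative cells were high in positive cells as well, while the reverse held for most probes but not for all. To read levels that had no part in the choice, the probes were also ranked on the arrays of 1 kind of cell and read on the arrays of the other, with no limit on the difference. Both kinds of array share the reference RNA, the dyes and the days. The 200 probes highest in negative cells had a median processed log2 ratio of 3.53 there, and their lowest was 3.03. In positive cells the same 200 probes had a median of 3.59 and a lowest value of 2.00, which is 4.01-fold over the pool. All 200 were therefore at least 4-fold over the pool in the positive mean, and they were at least 2-fold over it on each positive array. Their lowest rank in positive cells, that of the probe at 2.00, was 844 of the 41741 probes without saturated spots. Their median rank there was 157.5. Of these 200 probes, 179 are members.

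The opposite reading gave another picture. The 200 probes highest in positive cells had a median of 4.04 there and a lowest value of 3.39. In negative cells their median was 3.35, but their lowest value was -0.85, and 160 were at least 2-fold and 151 at least 4-fold over the pool. The share of all probes at least 2-fold or 4-fold over the pool in negative cells is not given here. Among the 41741 probes ranked, their lowest rank in negative cells was 39337 and their median rank was 128. Of these 200 probes, 136 are members. Of the 200 probes highest in each kind of cell, 120 were the same.

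On single arrays, 130 and 124 members were among the 200 highest probes of the positive arrays, and 156 and 161 among those of the negative arrays. Between 194 and 197 members were among the 400 highest on each array. The lowest rank of a member on any array was 836, on the negative array of replicate 1. The rule chose the members on the mean of these same arrays. It also removed probes higher in positive cells, so these ranks and counts are partly fixed by it.

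The members' median difference, positive minus negative, was 0.05 on the log2 scale, against -0.01 for all probes. The median was 0.08 on each day. It turned to -0.038 without positive replicate 2 and to -0.01 without negative replicate 1. It was 0.115 without positive replicate 1 and 0.111 without negative replicate 2. Leaving out 1 array breaks the pairing by day, so these values also hold a part of the difference between the days. The members spread more widely than the array as a whole. Their 5th to 95th percentiles ran from -0.62 to 0.93, against -0.29 to 0.27 for all probes, and the lowest and highest members were at -1.10 and 1.40. The background correction with an offset of 50 pulls the ratios of dim probes towards 0, and the members are bright, so these spreads are not on equal terms. The same holds below where shares of members that differ between the cells or the days are set against those of all probes. The rule also capped the rise in positive cells and set no limit on a fall.

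No member passed the test between the cells. With limma, a linear model over all probes with Benjamini-Hochberg adjustment at 0.05, 0 members were called higher and 0 lower. Over all probes 0.219% were called higher (92) and 0.00952% lower (4), and nothing is read from the members' count of higher calls since the rule removed the strongest rises. At an unadjusted p under 0.05, 30 members (15.0%) were higher and 20 (10.0%) lower, against 3.74% (1570) and 3.49% (1468) of all probes. The lowest adjusted p of a member was 0.105 by limma, for Z00060824-1 (difference 0.94, SE 0.10).

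Samples of the same replicate number share a day, and their deviations from the group means correlated over all probes. With the replicate number as a block in limma, 10 members were called higher in positive cells and 1 lower. In that fit 0.736% of all probes were called higher (309) and 0.117% lower (49). With 4 arrays it has little information on the spread of a single probe, so its calls lean on the variance pooled over all probes. For this comparison the block was not combined with a variance that follows the intensity. The 10 members rose by 0.79 to 1.24, with adjusted p of 0.0227 to 0.0463 by limma with the block. In 9 of them both positive values lay above both negative values. None of these 11 members passed in the fit without the block. Under other settings without it, Z00009042-1 passed with the ratios scaled between arrays, and Z00070837-1 passed with no background correction.

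The strongest of the blocked calls was Z00009042-1, whose sequence is given above. It had log2 ratios of 5.02 and 5.25 in positive against 3.72 and 4.07 in negative cells, with no overlap. Its difference was 1.24 (SE 0.16), or 2.36-fold, with an adjusted p of 0.142 by limma and 0.0227 with the block. Over 15 alternative settings its adjusted p ranged from 0.0227 to 0.914 by limma. The highest came from the fit without the block in which the variance could follow the intensity, with the same difference of 1.24. In negative cells it was still over the pool on both days.

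The other members called higher with the block were higher in positive cells on each day. Z00060824-1 had 3.52 and 3.53 in positive against 2.70 and 2.48 in negative cells. Z00070837-1 had 3.86 and 4.22 against 2.91 and 3.23. Z00060605-1 had 3.90 and 3.78 against 3.01 and 2.58. In these 3 the groups were well apart, and the negative samples were still over the pool. Z00031472-1, at 2.86 and 3.72 against 1.86 and 2.33, had a difference of at least 2-fold on both days. Z00063166-1 had 4.32 and 3.58 against 3.51 and 2.54, with groups that did not overlap and a difference between the days (-0.85) close in size to that between the cells (0.93). Z00052768-1 had 3.21 and 3.95 against 2.35 and 3.23, and is the member whose groups overlapped. The remaining 3, Z00057834-1, Z00061014-1 and Z00060386-1, are described with the groups they belong to.

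Z00055646-1, which holds CATACTGGAGA, had 4.14 and 4.27 in positive against 3.15 and 2.46 in negative cells. Its difference of 1.40 (SE 0.24), 2.63-fold, was the highest among members, and its groups did not overlap. It was called in neither fit (adjusted p 0.25 by limma, and 0.102 with the block, within a range of 0.102 to 0.56 over 15 alternatives). Z00060983-1 had 4.64 and 4.45 against 3.84 and 2.84, a difference of 1.21 (SE 0.34), also without overlap and called in neither fit.

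At the other end, Z00000953-1 had 4.48 and 2.96 in positive against 4.98 and 4.66 in negative cells. The groups did not overlap, but the positive values of the 2 days lay further apart than the groups' means, which differed by -1.10 (SE 0.52). Z00035601-1, which holds AATAAA, had 3.22 and 1.92 against 4.08 and 3.26, a difference of -1.10 (SE 0.51) with no overlap. Z00021599-1 had 2.28 and 1.29 against 3.36 and 2.23, so its groups overlapped, and each day gave a difference close to the other (-1.08 and -0.94). It is the member called lower with the block (adjusted p 0.0325 by limma, range 0.0325 to 1.0 over 15 alternatives), and its mean difference of -1.01 is 2.02-fold. All 3 were still above the pool in every positive sample.

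Of the 198 members with values on both days, 79 (39.9%) were higher in positive cells on both days, 55 (27.8%) were lower on both, and 64 (32.3%) had opposite signs on the 2 days. Over all probes these shares were 25.1%, 31.5% and 43.4%. On both days 113 members (57.1%) stayed within 1.41-fold, against 92.9% of all probes. At least 2-fold differences on both days were found for 2 members higher, Z00009042-1 and Z00031472-1 (0.49% of all probes), and 0 lower (0.0216% of all probes). Both positive values were above both negative values in 39 members (19.7%; 14.6% of all probes) and below them in 30 (15.2%; 17.3% of all probes). Across the 198 members the differences of the 2 days correlated with Pearson's r = 0.64 and Spearman's rho = 0.65, as a description over probes that share the arrays. Over all probes r was 0.65 and rho 0.27. The shares of members that were higher on both days and without overlap are limited by the rule, which removed probes past the limit on both days.

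The pool is the same RNA on every array, so its channel is given beside that of the samples. Its signal still differed between the cells at some probes with a large difference in Cy3, and not at others. Z00031029-1, removed by the limit, had processed Cy5 of 1456 and 2048 on positive and 162 and 103 on negative arrays. Z00034851-1, also removed, had 502 and 497 against 511 and 482. Whether the Cy5 spread holds a part of the sample channel was not tested. Centred on each array's median, the members' Cy5 signal differed between the arrays of the positive and the negative cells by a median of 0.01, with an SD over probes of 0.26 and 5th to 95th percentiles from -0.41 to 0.39. Their Cy3 signal differed by a median of 0.08, with an SD of 0.63 and percentiles from -0.82 to 1.27. Over all probes the SD was 0.16 in Cy5 and 0.34 in Cy3, and these include the strong rises that the rule removed from the members. Their 5th to 95th percentiles ran from -0.24 to 0.21 in Cy5 and from -0.40 to 0.41 in Cy3. The sample channel was thus the wider one over all probes as well, and the members spread more widely in both channels. The pool is 1 RNA, whereas the sample channel holds separate samples.

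Some members share sequence, so they may bind the same RNA. By blastn on the same strand, with at least 24 aligned bases and 80% identity, 109 members aligned to another probe of the array and 91 to none. Only 23 aligned to another member, in 10 groups, 8 of them pairs. In 8 groups all members had differences of the same sign, and in the other 2 the signs were mixed.

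The largest group holds 4 members and 30 other probes, Z00060983-1 among them. Its members differed by 0.67 to 1.21 and were higher in positive cells on both days. Z00030987-1 had 4.56 and 3.45 in positive against 3.45 and 2.69 in negative cells. Z00030988-1 had 4.36 and 3.68 against 3.82 and 2.83, and Z00027616-1 had 4.16 and 3.41 against 3.61 and 2.62. In all 3 the positive sample was higher within each day, while the values of the 2 days overlapped between the groups. The 30 linked probes outside the set had a median difference of 0.22, and none of the 4 members was called in either fit.

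The group with CATACTGGAGA holds Z00055646-1 and Z00060956-1 and is linked to 51 other probes. Z00060956-1 had 3.28 and 2.80 in positive against 2.84 and 1.85 in negative cells, a difference of 0.69 (SE 0.37), and its groups overlapped. Z00060976-1, removed by the limit, had 3.55 and 3.80 against 2.52 and 2.27, a difference of 1.28 (SE 0.14) without overlap. The 51 linked probes had a median difference of 0.46, with single values from -1.10 to 1.28, and with the block Z00060872-1 was called higher (0.89, adjusted p 0.0389 by limma) and Z00056456-1 lower (-1.10, adjusted p 0.0342). The 11-base run was found on the probe strand of 2 members (1.0%) and of 23 probes in all (0.0548%), and on the other strand of 0 members and 1 probe.

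The pair Z00061014-1 and Z00060386-1 was called with the block. Z00061014-1 had 4.01 and 3.65 in positive against 3.14 and 2.68 in negative cells. Z00060386-1 had 3.67 and 3.26 against 2.88 and 2.39. In both the groups did not overlap, and the differences were 0.92 (SE 0.20) and 0.83 (SE 0.22), with adjusted p of 0.0348 and 0.0388 by limma with the block and 0.359 and 0.449 without it. Another probe aligned to them, Z00071899-1, had 4.08 and 3.86 against 4.11 and 4.06, a difference of -0.12 (SE 0.10). Members that share sequence therefore did not always move together.

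AATAAA is found in that pair and also in a pair of lower value in positive cells on both days, Z00034455-1 and Z00004931-1. Z00034455-1 had 3.75 and 4.49 in positive against 4.47 and 5.01 in negative cells. Z00004931-1 had 3.57 and 4.34 against 4.65 and 5.03. The differences were -0.62 (SE 0.31) and -0.88 (SE 0.29), and neither was called (adjusted p 0.872 and 0.597 by limma, 0.0842 and 0.081 with the block). Z00004931-1 had groups without overlap, and Z00034455-1 did not. Of the other pairs, 4 had differences of 0.21 to 0.65 in all their members, and none of these was called in either fit.

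Members were less rich in G and C than the array, with a median of 40% against 43.3%. At most 35% G and C was found in 54 members (27.0%), against 17.3% of all probes. AATAAA was found on the probe strand of 32 members (16.0%) and of 6.75% of all probes, and on the other strand of 10 members (5.0%) and 3.42% of all probes. ATTAAA, a variant of that signal, was found on the probe strand of 9 members (4.5%) and 3.2% of all probes, and on the other strand of 10 members (5.0%) and 2.31% of all probes. AATAAA started at base 41 of the probe in the median of the members and at base 42 in that of all probes. The 32 members with AATAAA had a median log2 ratio of 3.07 and a median difference between the cells of -0.14, against 3.32 and 0.08 in the other 168 members. Of the 32, 13 were above and 19 below 0, from -1.10 to 1.20. With the block 4 were called, all higher (Z00031472-1, Z00052768-1, Z00061014-1 and Z00060386-1), and the last 2 are the overlapping pair. In that fit 10 of all members (5.0%) and 0.736% of all probes were called higher. The share called among all probes with AATAAA is not given here. The shares by sequence describe the letters of the probes, and no test was made on them.

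The 12 members with at least 60% G and C (60.0% to 76.7%) stood apart between the days, which was seen after the values were known and was not tested. On the day of replicate 1 their median difference was -0.82, 11 of the 12 were lower in positive cells, and 4 were at least 2-fold lower (Z00066250-1, Z00072133-1, Z00072929-1 and Z00063945-1). On the day of replicate 2 the median was 0.18, 5 were lower and 0 were 2-fold lower. Single differences ran from -1.32 to 0.88 in replicate 1 and from -0.33 to 0.74 in replicate 2. The other 188 members had medians of 0.09 and 0.07. In the sample channel alone the medians of the 12 were -1.02 and 0.26, and in the pool channel -0.13 and 0.07. The 1921 probes of the array with the same G and C content, members included, had medians of -0.04 and -0.01. Of these, 1183 were lower in positive cells in replicate 1 and 1002 in replicate 2. At least 2-fold lower were 12 and 3 of them.

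Z00055649-1 is 1 example. It had 3.64 and 3.54 in positive against 4.58 and 3.32 in negative cells. Z00066250-1 had 2.71 and 2.87 against 4.03 and 2.71. Z00060932-1 had 2.82 and 3.79 against 3.67 and 3.83. In the first pair of these the negative sample of replicate 1 was the high one, and in Z00060932-1 the positive sample of replicate 1 was the low one. The exception among the 12 is Z00057834-1, with 3.19 and 3.79 against 2.31 and 3.05, higher in positive cells on both days and called with the block (adjusted p 0.0444 by limma, and 0.719 without it). Bases 31 to 60 of a pair of these probes show the G and C content.
Z00055649-1: cgccgggccagtctacactgccgcgtgggt
Z00060932-1: cgcaatgaaggtgaagggccccgcccgggg

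The difference between the days was not used by the rule, which took the mean of both. Replicate 2 minus replicate 1 had a median of 0.06 over the members and -0.02 over all probes. It was 0.07 within positive and 0.09 within negative cells. Its sign depended on the processing, with -0.143 without background correction, -0.095 with median centring, -0.119 with scaling between arrays and 0.196 on processed signals. By limma 0 members were called higher and 0 lower on the day of replicate 2 (0% of all probes either way), with 64 (32.0%) higher and 47 (23.5%) lower at an unadjusted p under 0.05, against 6.38% (2681) and 10.5% (4393) of all probes. At least 2-fold differences between the days were found for 10 members (5.0%), against 0.183% of all probes. These contrasts with all probes are again not on equal terms, because of the offset.

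Z00004875-1 had the widest gap between the days, with 2.79 and 4.48 in positive against 1.80 and 4.09 in negative cells. Replicate 2 was higher by 1.99 on average, in both kinds of cell. Z00055606-1 was higher by 1.84 in replicate 2. Z00035601-1 and Z00021599-1, described above for their difference between the cells, were also the lowest on the day of replicate 2, at -1.06 and -1.05. For some members the levels thus differed between the days as much as or more than between the cells. The rule capped the rise in positive cells and not the difference between the days, so this comparison is partly fixed by it.

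A whole-probe match to the windows of 300 bases at gene starts (250 bases before to 50 after, RefSeq, GRCm38.p6) was found for 288 probes of the array, 3 of them members. The matches are own matches of sequence and give a place, not the RNA that was measured. Z00055649-1 matched chr15:99590881-99590940, from 147 to 88 bases before the start of Aqp5, on the gene's strand. Aqp5 encodes a water channel. Z00063945-1 matched chr10:77978615-77978674, from 35 bases before the start of Cfap410 and across it, on the gene's strand. Cfap410 encodes a protein of cilia. Z00060927-1, at rank 199, matched chr7:48736452-48736511, from 132 to 73 bases before the start of Gm45086, on the strand opposite to the gene.
Z00060927-1: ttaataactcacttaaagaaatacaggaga
Z00060927-1 had 3.15 and 3.05 in positive against 2.97 and 2.61 in negative cells, without overlap and with a difference of 0.31 (SE 0.15). Z00063945-1 had 2.89 and 3.30 against 4.13 and 3.00 and is among the 12 members rich in G and C. The other probes near rank 200 were Z00028408-1, with 2.51 and 2.05 against 2.29 and 2.29, and Z00060882-1, with 2.85 and 2.81 against 2.40 and 1.44.

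The limit on the difference kept 12 probes out of the set, which would otherwise have ranked among the highest 200. In all 12 both positive values lay above both negative values, which the rule partly fixes. Their mean log2 ratios ran from 2.90 to 5.97 in positive cells and from 0.40 to 3.43 in negative cells. Z00058166-1 had 5.86 and 6.07 in positive against 0.92 and -0.04 in negative cells. Z00031029-1 had 5.57 and 5.78 against 0.48 and 0.31. These 2 probes had negative means of 0.44 and 0.40, under 2-fold over the pool, while the other 10 had negative means of at least 2-fold. Z00070970-1, for example, had 5.20 and 5.11 against 3.62 and 3.25.

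Without the limit, the mean of the 4 arrays alone chooses 200 probes. The positive arrays enter that mean, so a probe high in positive cells alone can be chosen. In that set limma called 6 probes higher in positive cells (3.0%, against 0.219% of all probes) and 0 lower. All 6 are among the 12 probes that the limit removed. With the block, 19 were called higher (9.5%, against 0.736% of all probes) and 1 lower (0.5%, against 0.117%), and 11 of the 12 removed probes were among the calls. Saturation kept out 5 more probes of the same level. Z00031972-1, Z00070258-1, Z00058380-1, Z00024317-1 and Z00032712-1 differed by -0.06, 0.10, -0.48, -0.47 and 0.42, and none was called in either fit.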

How the data were processed

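The authors deposited 1 scanner table for each of 4 arrays and 1 table of processed values. The deposited scanner tables hold spot intensity of both dyes on a linear scale, as mean signals, local backgrounds and processed signals, and a log10 ratio, per the file headers. The headers name Feature Extraction 7.5.1 and the series' design text 9.5.1.1, and both are credited to the submitters. The scale of the authors' value table is not stated. Its columns, with medians of 2.95 to 2.96, correlated with log2 processed Cy3 at 0.992 to 0.994, and its deviations between arrays correlated with those of the log2 processed ratio at 0.975 to 0.996. It was read as log10 values with the sample higher upwards, with its centring unknown, and served as an alternative.

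The members were chosen on the deposited processed intensity of the sample (Cy3) over the pool (Cy5), without further normalization. For tests, mean signals were corrected with normexp (offset 50), normalized within each array by loess and turned to log2 of sample over pool. Control spots had weight 0, and 403 outlier spot values were left out. Spots were averaged by probe and fitted with limma 3.58.1 (R 4.3.3) over all 42006 probes. The fit was tested on simulated data. Same-numbered samples carry the same date in the labels, and their deviations correlated at 0.475, so the number was used as a block. Probes were aligned with blastn 2.17.0. No column held values of other samples.

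The members and lists were chosen with earlier results of these data known. Since no probe could be named, the rule named the 4 probes of highest rank, the 3 lowest and 3 highest differences and the 3 on each side of the rank limit. All other probes were named after their values were seen. The planned rule for printing sequences, which needed a match to a coding gene, could not be applied. Sequences, aligned groups, motifs and members rich in G and C were chosen after values were seen. The planned filter on dim probes used the negative-control spots, because the software's own mark was set for every probe.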

Additional observations from a re-analysis of the deposited data

How the results depend on the processing

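Each choice was changed in turn. The count of members called higher by limma, 0 at first, was 1 without background correction, 1 with scaling between arrays, 10 with the replicate block and 6 with no limit on the difference. After seeing the data, sets ranked on Emerald-negative arrays, on Emerald-positive arrays (47 called higher) and with no limit plus the replicate block (19 higher, 1 lower) were added. Ranking on 1 kind of cell favours probes high in it, so the calls and medians of those sets are partly fixed by the choice and support nothing. The count called lower was 1 with the replicate block and 0 under the other settings within the main set, and leaving out any sample gave 0 calls. The median difference of 0.054 was 0.064 with offset 10, 0.084 on processed signals, 0.049 with median centring, 0.085 with scaling, 0.066 in the sample channel alone and 0.087 in the authors' value table. It was 0.088 with no limit (0.093 with the block), 0.071 for 100 probes, 0.001 for 400, -0.042 ranked on Emerald-negative and 0.489 on Emerald-positive arrays. Ranked on the loess ratio, which shares 176 members, it was 0.062, and ranked on 1 day and read on the other it was 0.016 and 0.065. Leaving out 1 sample gave -0.038 to 0.115, with the sign turned without Emerald-positive replicate 2 (-0.038) and without Emerald-negative replicate 1 (-0.01). The days are then no longer balanced between the groups, which holds for every value given without 1 sample. The median day difference of 0.065 was 0.164 with offset 10, 0.196 on processed signals and in the authors' table, -0.143 without background correction, -0.095 with median centring and -0.119 with scaling. Of 195 values for single probes, 9 changed sign, all in probes with small differences. Z00005214-1 gave -0.137 without background correction and -0.353 in the sample channel alone. Leaving out 1 sample gave -0.018 to 0.244 for Z00072411-1 and -0.232 to 0.5 for Z00034687-1, below 0 without Emerald-positive replicate 2 in both and without Emerald-negative replicate 1 in the latter (-0.13). Z00028408-1 gave 0.076 without background correction, 0.015 with scaling, 0.172 in the sample channel and -0.237 to 0.222 without 1 sample, above 0 without Emerald-positive replicate 2. Z00009042-1 passed with scaling (1.271) as well as with the block. The block changed no other call of a named probe than those of Z00009042-1 and Z00021599-1. The cause was not tested. In the sample channel all members lay above the negative-control spots. The pool channel was not compared with them, and some members were dim there. Z00049222-1, for example, had processed Cy5 signals of 237 and 92.5 on positive and 257 and 141 on negative arrays. The Cy5 medians of all probes were 818 to 927.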
